A study of Mus musculus with 6 samples.

Results

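The clustered histone genes were the genes whose symbols began with Hist1h, Hist2h, Hist3h or Hist4h, the older mouse names of the histone genes in 4 genomic clusters. Of 73 entries with such a symbol, 4 were repeats of a symbol with identical counts, and 10 of the remaining 69 symbols had no read in any library. The other 59 genes, of 26195 genes with at least 1 count, are described here. They comprised 5 genes of the linker histone H1, 16 of H2A, 15 of H2B, 10 of H3 and 13 of H4, of which 50 carried Hist1h symbols, 5 Hist2h, 3 Hist3h and 1 Hist4h. The H2B genes included Hist3h2bb-ps, a pseudogene by its symbol.

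RNA of 6 cerebella from C57BL/6 mice aged 6 days was sequenced in 3 wild type libraries and 3 libraries of a SnoN conditional knockout (SnoN cKO). SnoN, encoded by Skil, is a transcriptional co-regulator that binds Smad proteins. Which promoter drove the recombinase, which exons it removed and in which cells is not stated in the labels. Whole tissue was measured, so fewer cells of a type and less RNA per cell cannot be told apart. The kit did not record the strand of a read, and the labels do not state whether poly(A) RNA had been selected or ribosomal RNA removed.

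H2A, H2B, H3 and H4 form the core of the nucleosome, and H1 binds the DNA between nucleosomes. Most clustered histone genes are replication-dependent: they are transcribed in S phase, when new DNA needs histones, and their mRNAs end in a conserved stem-loop instead of a poly(A) tail. The stem-loop is bound by SLBP, the stem-loop binding protein, which acts in the processing, translation and decay of these mRNAs. Some members also make polyadenylated transcripts, as is known for differentiated cells. In the cerebellum of young mice the dividing cells are mostly granule neuron precursors of the external granule layer.

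The stem-loop letters of the members are shown because most members carry them and their form sets the H4 genes apart. In GENCODE M21 transcripts (GRCm38), the letters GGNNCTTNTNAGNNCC (N is any base) were found on the transcript strand in 41 of 59 members (69.5%), against 90 of 21810 other protein-coding genes (0.413%). For 18 members no match was found, which says only that these letters are not in the annotated transcripts. The sequences run 5′ to 3′, with the stem-loop in capitals and 5 bases of flank on each side.
Hist1h1e: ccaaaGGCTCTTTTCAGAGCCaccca
Hist1h1c: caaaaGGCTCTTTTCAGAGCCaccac
Hist3h2ba: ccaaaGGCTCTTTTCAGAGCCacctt
Hist2h2ac: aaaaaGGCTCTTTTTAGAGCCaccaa
Hist1h3f: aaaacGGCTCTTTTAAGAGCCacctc
Hist1h4d: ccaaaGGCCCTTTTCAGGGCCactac
Hist1h4i: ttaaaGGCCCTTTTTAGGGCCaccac
Hist4h4: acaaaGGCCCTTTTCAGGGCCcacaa

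The form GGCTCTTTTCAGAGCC occurred in 22 members, namely 3 H1, 7 H2A, 8 H2B and 4 H3 genes, and in 0 H4 genes. The form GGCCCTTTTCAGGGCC, with other letters within the stem, occurred in 7 members, all of them H4 genes. A further form, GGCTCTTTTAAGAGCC, with a different last base of the loop, was found in 2 H2B and 3 H3 genes. Hist1h1e and Hist1h1c carried the same 16 letters, although their counts differed widely in pattern, as given below.

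The upstream sequences of 51 members could be matched to RefSeq promoter windows (GRCm38.p6, from 250 bases before to 50 after the annotated start). Motifs were searched as plain letters on both strands. The octamer ATTTGCAT, known from H2B promoters as the site of the factor Oct-1, was found in 10 of 51 windows (19.6%) and in 1.75% of all 27025 windows. It lay in 6 of 14 H2A and 4 of 12 H2B windows, and in none of the H1, H3 and H4 windows. The TATA letters TATAAA were found in 32 windows (62.7%, against 14.2% of all windows). CCAAT was found in 42 windows (82.4%, against 37.9%), in each H1, H2A, H2B and H3 window and in 3 of 12 H4 windows. In 7 cases the windows of an H2A and an H2B gene transcribed in opposite directions overlapped, so these pairs share motifs. Hist1h2ae and Hist1h2bg, for example, shared 279 bases. Shown are the 250 bases before the start of Hist1h2bg, at chr13:23571150-23571399 on the plus strand, which hold all 3 motifs, and of the H4 gene Hist1h4i, at chr13:22041363-22041612 on the minus strand, which hold only TATAAA. Capitals mark the motifs in either orientation.
Hist1h2bg: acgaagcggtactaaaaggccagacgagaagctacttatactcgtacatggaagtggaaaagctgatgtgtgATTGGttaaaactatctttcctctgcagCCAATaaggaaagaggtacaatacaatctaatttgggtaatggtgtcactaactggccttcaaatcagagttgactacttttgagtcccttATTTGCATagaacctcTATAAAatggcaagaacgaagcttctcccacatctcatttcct
Hist1h4i: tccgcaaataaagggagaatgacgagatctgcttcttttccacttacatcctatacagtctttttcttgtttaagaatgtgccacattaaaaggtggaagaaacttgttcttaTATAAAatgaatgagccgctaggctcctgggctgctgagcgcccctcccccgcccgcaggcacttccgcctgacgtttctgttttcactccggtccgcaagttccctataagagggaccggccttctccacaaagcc

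Library totals ranged from 12662952 to 17840662 counts on genes, and the biological coefficient of variation over all genes was 9.71%. Skil, the targeted gene, averaged 88.6 ± 1.0 CPM in wild type libraries against 76.1 ± 1.39 CPM in those of SnoN cKO (SD, n = 3 each). The log2 fold change was -0.22 (SE 0.04). By edgeR's quasi-likelihood test the unadjusted p was 3.8e-04 and the adjusted p 0.637, and 0 of all genes tested passed an adjusted p of 0.05. The libraries of the genotypes were separate for Skil, as in 6.73% of all genes tested with SnoN cKO lower. CPM are read counts scaled to a common library total. SnoN cKO 3, and to a lesser degree wild type 2, stood apart from the other 4 libraries in the histone genes and in several RNAs without a poly(A) tail, so results that rest on them are given with and without them. Reads of Y-linked genes went against the labelled sex of 2 libraries: SnoN cKO 1, labelled female, had 3421, and SnoN cKO 2, labelled male, had 5. Both belonged to the same genotype group. Markers of cerebellar neurons, such as Zic1 and Pax6, were summed at 2917 to 3394 CPM over the libraries. Choroid plexus markers were summed at 48.5 CPM in SnoN cKO 2 and at 1807 to 3484 CPM in the other libraries, and erythroid markers at 99.8 to 223 CPM, neither of which was highest in SnoN cKO 3.

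In the 5 libraries other than SnoN cKO 3, most histone reads came from a few genes. SnoN cKO 3 held reads of all 59 members, wild type 2 of 54 and the remaining libraries of 37 to 45. The 59 genes summed to 84.9, 99.6 and 81.0 CPM in wild type 1, 2 and 3 and to 78.1, 83.6 and 189 CPM in SnoN cKO 1, 2 and 3. The genotypes overlapped, and SnoN cKO 3 was 1.90 times the next-highest library. The means were 88.5 ± 9.80 and 117 ± 62.4 CPM (SD, n = 3 each), a log2 ratio of 0.40. Without SnoN cKO 3 the log2 ratio was -0.12, and without both SnoN cKO 3 and wild type 2 it was -0.03. The direction of the summed difference thus rested on SnoN cKO 3.

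The members were also summed by whether they were on the list of genes known to make poly(A) transcripts. The list was chosen with earlier results of these data known, and 5 of its 6 genes passed the read filter described below. The contrast between listed and other genes may thus be partly set by this choice. The 6 genes listed as known to make poly(A) transcripts (Hist1h1c, Hist1h2bc, Hist2h2be, Hist3h2a, Hist3h2ba and Hist4h4) summed to 72.1, 72.3 and 70.3 CPM in wild type and 65.9, 70.5 and 88.6 CPM in SnoN cKO. The other 53 genes summed to 12.8, 27.2 and 10.7 CPM in wild type and 12.2, 13.1 and 100.2 CPM in SnoN cKO. These were 164, 410 and 137 reads in wild type and 156, 193 and 1709 reads in SnoN cKO. In the sum of these 53 genes SnoN cKO 3 was 3.68 times the next-highest library, wild type 2. The remaining 4 libraries lay close together. Single members crossed this split. SnoN cKO 3 held 60.5% of the CPM, summed over the libraries, of Hist4h4, which is on the list. Of Hist1h4i and Hist1h2be, outside the list, it held 19.5% and 21.3%.

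By class, the excess in SnoN cKO 3 differed. H3 genes summed to 1.10, 2.46 and 1.01 CPM in wild type and 1.49, 0.880 and 15.2 CPM in SnoN cKO, with SnoN cKO 3 at 6.18 times the next-highest library. H4 genes summed to 5.71, 9.76 and 4.05 CPM in wild type and 5.40, 5.08 and 28.2 CPM in SnoN cKO, a ratio of 2.89. H1 genes summed to 13.9, 19.4 and 11.4 CPM in wild type and 10.4, 12.8 and 53.0 CPM in SnoN cKO, a ratio of 2.73. In these 3 classes wild type 2 was the second-highest library. For H2A the sums were 19.6, 21.6 and 19.3 CPM in wild type and 14.3, 20.9 and 34.5 CPM in SnoN cKO, a ratio of 1.60. For H2B they were 44.5, 46.4 and 45.3 CPM in wild type and 46.4, 43.9 and 58.0 CPM in SnoN cKO, a ratio of 1.25. H2B and H2A are the classes to which 4 of the 6 genes of the poly(A) list belong.

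**Figure D1:**
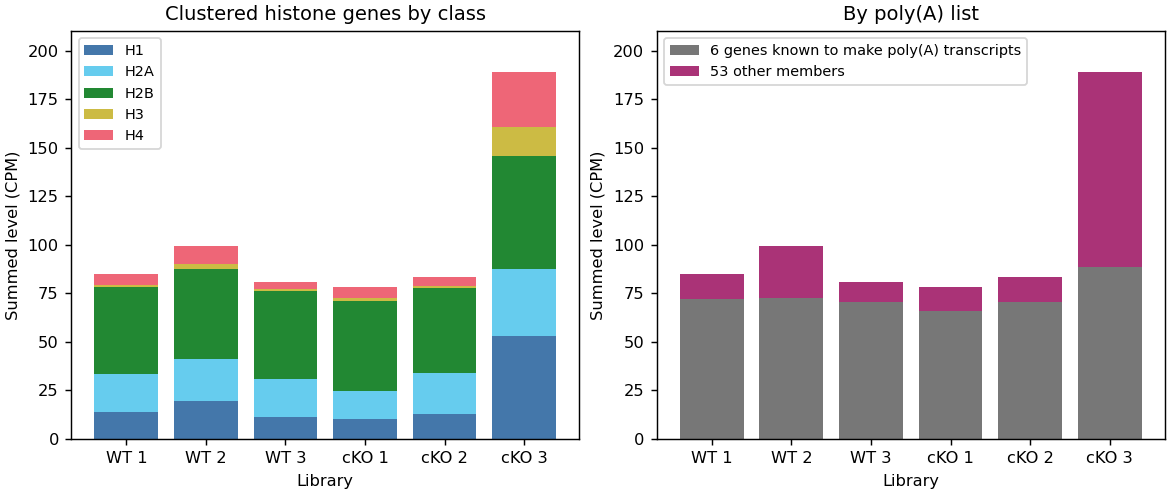
Summed level (CPM) of the 59 clustered histone genes in each library, stacked by class (left) and by the list of 6 genes known to make poly(A) transcripts against the 53 others (right). SnoN cKO 3 reaches 189 CPM, 100.2 CPM of it from the 53 others, while the 6 listed genes stay between 65.9 and 88.6 CPM.

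SnoN cKO 3 was the highest of the 6 libraries in 52 of 59 members, against 15.8% of all genes with a count. In 33 members SnoN cKO 3 was highest and wild type 2 second, an order found in 2.58% of all genes with a count. The 7 exceptions were Hist1h2aj, Hist1h2al, Hist1h2ao, Hist1h2bp, Hist2h2ac, Hist2h2be and Hist2h3c2, of which Hist2h2be alone had more than 50 reads in any library. Among the 51 members that failed the read filter of the test described below, 45 were highest in SnoN cKO 3. Of the 10445 genes in the same range of total reads, 2 to 187, 16.5% were. The filter asks for enough reads in at least 3 libraries, so a gene high in SnoN cKO 3 alone fails it. The median of these 51 members was 1, 4 and 1 reads in wild type 1, 2 and 3 and 1, 2 and 23 reads in SnoN cKO 1, 2 and 3. Members without a read numbered 20, 5 and 22 in wild type and 17, 14 and 0 in SnoN cKO. A count of 0 allows a level of up to 0.199 to 0.235 CPM in the 5 libraries with such members (3 reads, counting error only), so absence of expression was not shown for any of them.

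**Figure D2:**
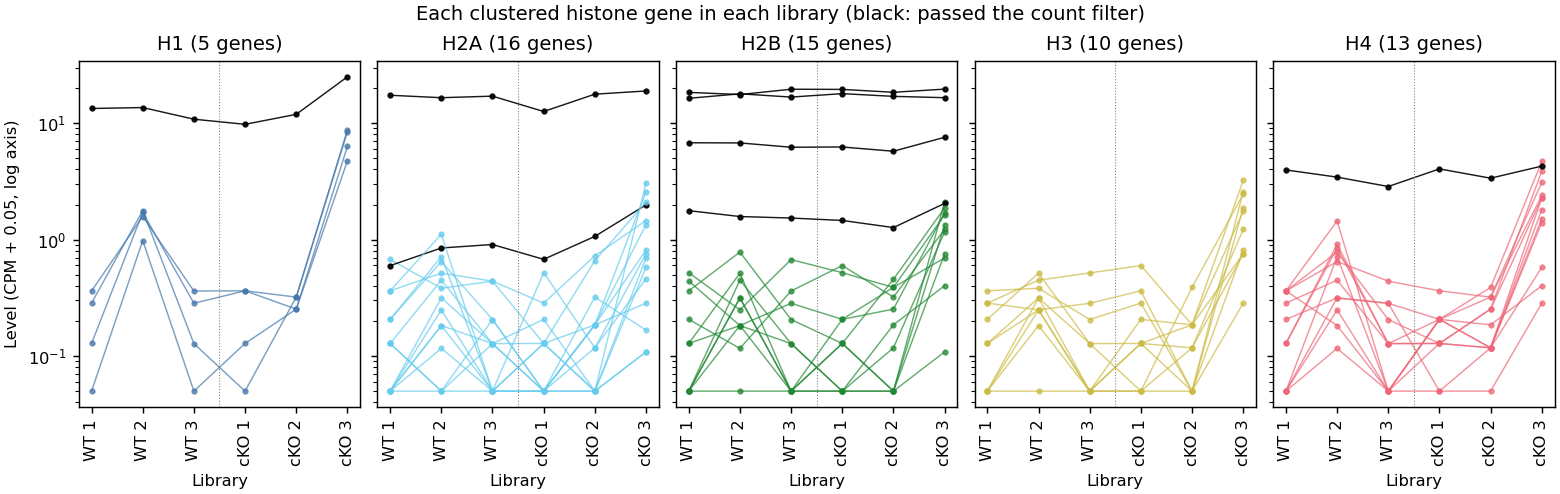
Level of each member (CPM + 0.05, log axis) in the 6 libraries, one panel per class. Lines join the values of a gene and stand for no order. Black lines are the 8 genes that passed the read filter of the test. Most coloured lines peak at SnoN cKO 3 with a smaller rise at wild type 2, while 6 of the 8 black lines are nearly level and those of Hist1h1c and Hist1h2ag reach 24.9 and 1.94 CPM in SnoN cKO 3.

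The linker histone genes differed in pattern within their class. Hist1h1b, encoding H1.5, had 4, 23 and 4 reads in wild type and 4, 4 and 148 reads in SnoN cKO. Hist1h1e, encoding H1.4, had 3, 26 and 1 reads in wild type and 0, 4 and 143 reads in SnoN cKO. Hist1h1d, encoding H1.3, had 1, 25 and 3 reads in wild type and 4, 3 and 107 reads in SnoN cKO. In all 3 genes SnoN cKO 3 was highest and wild type 2 second, and the genotypes overlapped. SnoN cKO 3 held 76.0%, 78.4% and 71.6% of their CPM summed over the libraries, where an equal share is 16.7%. Hist1h1c, encoding H1.2 and a member of the poly(A) list, had 170, 204 and 138 reads in wild type and 124, 175 and 425 reads in SnoN cKO. Its share in SnoN cKO 3 was 29.6%, between the other H1 genes and the equal share.

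Among the H2A genes, Hist1h2ak was highest in SnoN cKO 3 and second in wild type 2. It had 2, 10 and 0 reads in wild type and 0, 0 and 51 reads in SnoN cKO. Hist1h2ai was less uneven, with 4, 7 and 5 reads in wild type and 1, 9 and 35 reads in SnoN cKO. Hist1h2ag, which passed the filter, had 7, 12 and 11 reads in wild type and 8, 15 and 33 reads in SnoN cKO. All 3 were highest in SnoN cKO 3, with a share of its CPM of 78.5% for Hist1h2ak and 33.5% for Hist1h2ag. Hist3h2a, outside the large Hist1 cluster, had 221, 248 and 218 reads in wild type and 160, 261 and 321 reads in SnoN cKO. In CPM its libraries lay at 17.3, 16.5 and 17.0 in wild type and 12.5, 17.7 and 18.8 in SnoN cKO, so SnoN cKO 1 was the lowest.

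The H2B genes held the steadiest members. Hist3h2ba had 18.3, 17.5 and 19.5 CPM in wild type and 19.4, 18.3 and 19.5 CPM in SnoN cKO. Hist2h2be had 16.3, 17.8 and 16.7 CPM in wild type and 17.9, 16.9 and 16.5 CPM in SnoN cKO, with its highest value in SnoN cKO 1. In neither gene did SnoN cKO 3 depart from the other libraries, its shares being 17.3% and 16.2%. Hist1h2bc had 6.73, 6.71 and 6.16 CPM in wild type and 6.19, 5.68 and 7.51 CPM in SnoN cKO. Hist1h2be, the remaining H2B gene that passed the filter, had 22, 23 and 19 reads in wild type and 18, 18 and 34 reads in SnoN cKO. Hist1h2bg, whose upstream sequence is printed above, had 4, 11 and 2 reads in wild type and 1, 6 and 31 reads in SnoN cKO, and its divergent partner Hist1h2ae had 8, 5 and 5 reads in wild type and 3, 10 and 24 reads in SnoN cKO. Both genes of this pair were highest in SnoN cKO 3.

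No H3 gene passed the filter, and the class had the highest ratio of SnoN cKO 3 to the next library among the 5 classes. Hist1h3c had 3, 6 and 6 reads in wild type and 7, 2 and 54 reads in SnoN cKO. Hist1h3f had 1, 3 and 0 reads in wild type and 0, 0 and 43 reads in SnoN cKO, so SnoN cKO 3 held 90.1% of its CPM. Hist1h3e had 2, 7 and 1 reads in wild type and 0, 5 and 41 reads in SnoN cKO. In the other libraries these genes sat at 7 reads or fewer, and SnoN cKO 3 was the highest in each. Hist1h3a had 4, 5 and 2 reads in wild type and 3, 0 and 31 reads in SnoN cKO. Its share in SnoN cKO 3 was 63.7%, near that of Hist1h3c at 64.0%.

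Of the H4 genes, Hist1h4i stood apart from the rest. It had 50, 51 and 36 reads in wild type and 51, 49 and 72 reads in SnoN cKO, and its share in SnoN cKO 3 was 19.5%. Hist1h4d had 4, 21 and 0 reads in wild type and 2, 5 and 79 reads in SnoN cKO, and Hist1h4h had 4, 11 and 2 reads in wild type and 1, 3 and 65 reads in SnoN cKO. Both were highest in SnoN cKO 3 and second in wild type 2, with shares in SnoN cKO 3 of 67.8% and 72.0%. Hist2h4 had 4, 9 and 5 reads in wild type and 4, 4 and 40 reads in SnoN cKO. Hist4h4, although on the poly(A) list, had 2, 4 and 3 reads in wild type and 2, 1 and 23 reads in SnoN cKO. Its share in SnoN cKO 3 was 60.5%, the highest of the genes on the list. Nearly all mouse H4 genes encode the same protein.

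Levels between genes were compared per kilobase of annotated exon. Among the 8 genes that passed the filter, Hist3h2ba had the highest level in wild type at 30.0 CPM per kilobase, followed by Hist1h1c at 8.04, Hist3h2a at 7.88, Hist2h2be at 6.46, Hist1h2bc at 5.65 and Hist1h4i at 4.63 CPM per kilobase. Hist1h2ag was at 1.51 and Hist1h2be at 0.355 CPM per kilobase. In SnoN cKO the values of Hist3h2ba, Hist1h1c and Hist3h2a were 31.1, 9.93 and 7.61 CPM per kilobase. Hist1h1c and Hist3h2a, next to each other in this order, overlapped in their libraries' spread. Annotated exon lengths need not match the RNAs present.

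Many members are near-identical copies, which limits what a count of a single gene means. A median of 50.5% of the 50-base stretches of a member's transcripts was found in no other GENCODE gene, and 28 members were below 50%. Of the 10 symbols without a read, 7 were below 50% and 4, Hist2h2aa1, Hist2h2aa2, Hist2h3b and Hist2h3c1, had no stretch of their own. The 3 germ line genes Hist1h1t, Hist1h2aa and Hist1h2ba were also among the 10 symbols without a read.

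The genotype test could be made for 8 of the 59 members, those that passed edgeR's filter on low counts at a minimum of 10. By edgeR's quasi-likelihood test with Benjamini-Hochberg adjustment over 15457 genes, 0 of the 8 passed an adjusted p of 0.05, and 0% of all genes did. At an unadjusted p under 0.05 the count was 0 of 8 members, against 7.68% of all genes tested, and limma-voom likewise called 0. In 0 of 8 members were the libraries of the genotypes separate, against 6.95% of all genes with SnoN cKO higher and 6.73% with SnoN cKO lower. Fold changes were positive in 5 of 8 members, compared with 49% of all genes, and in 4 of 8 when libraries were scaled by their totals alone. Their median log2 fold change (SnoN cKO over wild type) was 0.03, against -0.002 over all genes.

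The fold changes of the 8 members ranged from -0.04 to 0.74 on the log2 scale. Hist1h2ag had a log2 fold change of 0.74 (SE 0.43), with an adjusted p of 0.684 by edgeR. Hist1h1c had 0.32 (SE 0.30) and Hist1h4i 0.19 (SE 0.18). The remaining 5, Hist3h2ba, Hist2h2be, Hist1h2bc, Hist1h2be and Hist3h2a, lay between -0.04 and 0.05, and the adjusted p of all 8 was between 0.684 and 0.992 by edgeR. Without SnoN cKO 3 the median was -0.05 and Hist1h1c was at -0.21. Without both SnoN cKO 3 and wild type 2, the median was -0.06, 4 of 8 fold changes were positive, Hist1h1c was at -0.15 (SE 0.16) and Hist1h2ag at 0.24 (SE 0.54). The sign for Hist1h1c and the size for Hist1h2ag therefore rested on SnoN cKO 3.

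**Figure D3:**
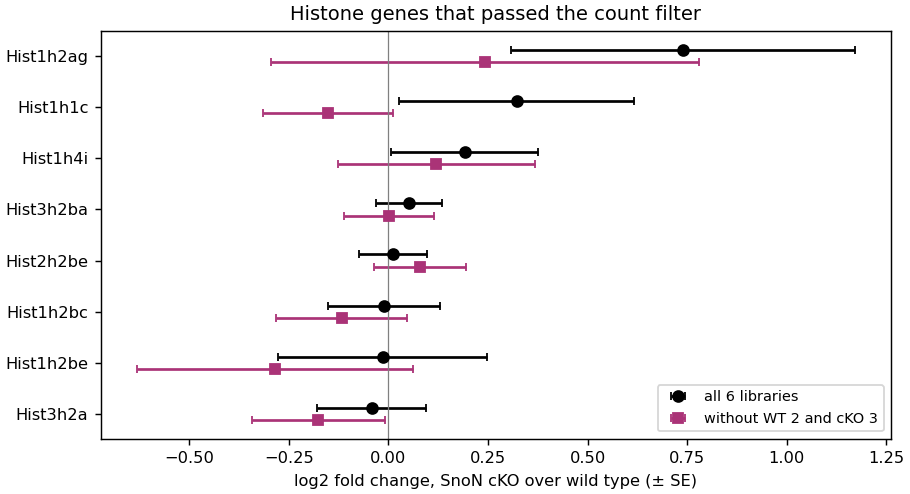
Log2 fold change (SnoN cKO over wild type, edgeR) of the 8 members that passed the filter, with bars of 1 SE, from all 6 libraries and from the 4 libraries left without wild type 2 and SnoN cKO 3. Hist1h2ag goes from 0.74 to 0.24 and Hist1h1c from 0.32 to -0.15, and of the other 6 genes Hist1h2be is farthest from 0 without the 2 libraries, at -0.29 (SE 0.35).

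Without the filter on low counts all 59 members could be fitted. Then 52 of 59 fold changes were positive, against 50.8% of 26195 genes, and their median was 1.41. At an unadjusted p under 0.05 were 26 members, against 7.12% of all genes, and by edgeR's adjusted p 0 members passed, against 0.149% of all genes. DESeq2 gave 52 positive fold changes and a median of 1.37 over the 59 members. It gave a p for 57 of them, all but Hist1h1b and Hist1h1e, with 5 at an unadjusted p under 0.05 and 0 past the adjusted threshold. When wild type 2 and SnoN cKO 3 were left out as well, 27 of 58 fold changes were positive, against 48.8% of all genes, and the median was -0.08. In that fit 1 member, Hist1h4k, was at an unadjusted p under 0.05, against 3.72% of all genes, and 0 passed edgeR's adjusted threshold. The excess of positive fold changes was thus seen with all 6 libraries and not when SnoN cKO 3 and wild type 2 were both left out.

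Of 8 listed RNAs known to lack a poly(A) tail and with a count here, 5 had their highest value in SnoN cKO 3 and the second in wild type 2, the order of the 33 histone genes. Rn7sk, the RNA that holds the elongation factor P-TEFb inactive, had 4, 221 and 2 reads in wild type and 13, 9 and 1349 reads in SnoN cKO. Rmrp, the RNA of the ribonuclease MRP, had 2, 98 and 3 reads in wild type and 1, 2 and 603 reads in SnoN cKO. Rpph1, the RNA of ribonuclease P, had 2, 293 and 5 reads in wild type and 1, 9 and 966 reads in SnoN cKO. Rny1 and Rny3, the Y RNAs, had the same order with fewer reads. The other 3 did not show it: Terc, the telomerase RNA, had 4, 1 and 4 reads in wild type and 8, 7 and 5 reads in SnoN cKO, and Rnu73b and Rn7s2 had at most 6 reads and 1 read in any library. The 8 listed RNAs with a count summed to 1.17, 42.8 and 1.25 CPM in wild type and 1.80, 2.37 and 178 CPM in SnoN cKO. Long nuclear RNAs (Malat1, Neat1, Kcnq1ot1 and Meg3) summed to between 1121 and 1356 CPM.

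Ribosomal RNA reads moved with these libraries too. Gm42418, a predicted gene known for collecting reads of ribosomal RNA and chosen here after its values were seen, had 505, 6921 and 565 CPM in the wild type libraries and 617, 656 and 39052 CPM in those of SnoN cKO. It took 3.75% of the counts of SnoN cKO 3 and 0.692% of those of wild type 2. The sum of the histone genes outside the poly(A) list, the sum of the RNAs without a tail and Gm42418 were thus highest in the same library and second in the same library. Gene by gene, this order held in 31 of the 53 histone genes and in 5 of the 8 RNAs. The part of the library composition in the histone values was not tested.

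**Figure D4:**
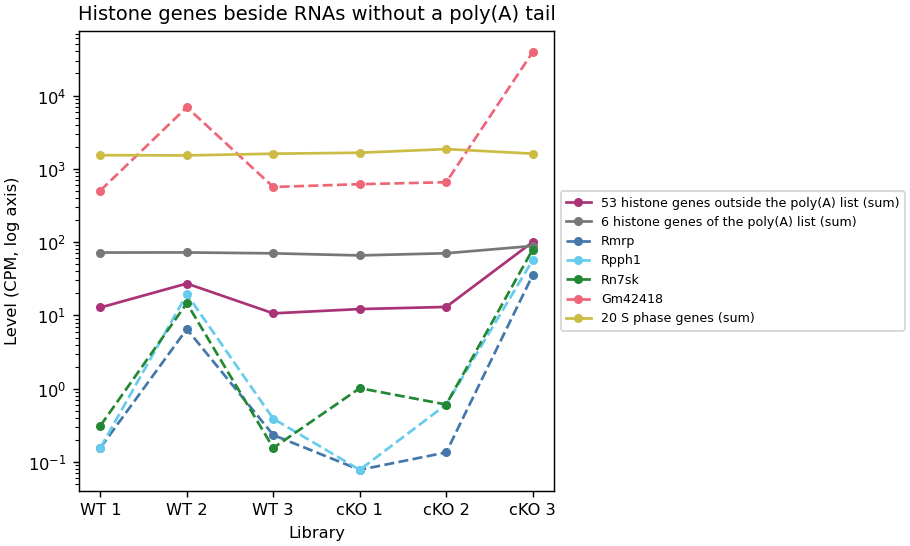
Levels (CPM, log axis) in the 6 libraries of the 53 histone genes outside the poly(A) list (sum), the 6 genes of the list (sum), Rmrp, Rpph1, Rn7sk, Gm42418 and 20 S phase genes (sum); lines stand for no order. The 53 histone genes, the 3 RNAs without a tail and Gm42418 peak at SnoN cKO 3 and are next highest at wild type 2, while the 6 listed histone genes and the S phase genes are nearly level.

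The share of a member's CPM in SnoN cKO 3 was then set beside its 3′ end as annotated. In the 51 members below the filter the median share was 67.0% for SnoN cKO 3 and 14.1% for wild type 2. In the 8 that passed, it was 19.4% for SnoN cKO 3. Because the filter fails genes high in SnoN cKO 3 alone, this contrast is partly set by the filter. Of the 41 members with a stem-loop, 21 were annotated 100 bases or more past it, with a median share of 60.5% and a range from 17.3% to 90.1%. The 20 annotated for fewer bases had a median of 64.2% and a range from 21.7% to 77.9%. The ranges overlapped over most of their length, and 5 of the first and 1 of the second had passed the filter. Hist1h1e and Hist1h1c, with the same stem-loop, were annotated 1153 and 840 bases past it and had shares of 78.4% and 29.6%. Hist4h4, annotated 2445 bases past its stem-loop, had 60.5%, and Hist3h2ba, annotated 169 bases past it, had 17.3%. The annotated end thus did not order the members by their share.

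**Figure D5:**
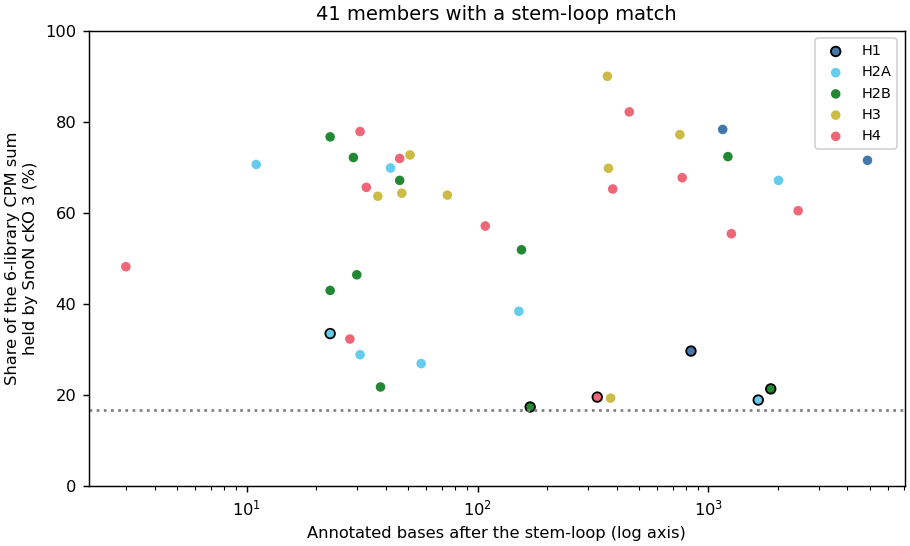
Share of a member's summed CPM held by SnoN cKO 3 (percent) against the annotated bases after the stem-loop, for the 41 members with a match, coloured by class. Outlined points passed the filter on low counts and the dotted line marks an equal share, 16.7%; members with short and with long annotated ends span similar shares.

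The S phase genes had their highest value in SnoN cKO 3 in 1 of 20 cases, against 14.4% of all genes tested, and in SnoN cKO 2 in 19. For SnoN cKO 2 the share over all genes was not counted, here and for the lists below. The 20 S phase genes summed to 1535, 1522 and 1608 CPM in wild type and 1657, 1858 and 1610 CPM in SnoN cKO, with the highest sum in SnoN cKO 2. SnoN cKO 3 lay just above wild type 3 on this scale, and with library totals alone it was at 1549 CPM, below wild type 3 at 1612 CPM. Their log2 fold changes were positive in 20 of 20 genes with a median of 0.14, in 19 of 20 with library totals, and in 16 of 20 with a median of 0.07 without SnoN cKO 2. At an unadjusted p under 0.05 were 7 of 20, against 7.68% of all genes tested, and 0 passed edgeR's adjusted threshold. With library totals 2 of 20 were at that unadjusted p by edgeR, against 1124 of 15457 genes. Leaving out 1 library gave counts from 1 (without wild type 1 or without SnoN cKO 2) to 11 (without SnoN cKO 3). Over all genes the count was 740 of 15568 without SnoN cKO 2 and 1505 of 15542 without SnoN cKO 3. Tyms, the thymidylate synthase, was at 30.7 ± 0.689 and 34.9 ± 0.749 CPM (SD, n = 3 each), with a log2 fold change of 0.19 (SE 0.05). Markers of the dissected tissue moved alongside. Log2 fold changes were positive in 8 of 8 cerebellar markers (median 0.12). They were negative in 6 of 6 brainstem markers tested (median -1.28) and 8 of 8 meningeal markers (median -0.12). Choroid plexus markers were negative in 9 of 9 (median -0.32) and erythroid markers in 6 of 6 tested (median -0.22). In these lists 0 genes passed edgeR's adjusted threshold. SnoN cKO 2 was the highest library in 7 of 8 cerebellar markers and had the lowest choroid plexus sum, 48.5 CPM. Without SnoN cKO 2, log2 fold changes were positive in 8 of 8 cerebellar and 9 of 9 choroid plexus markers. The part of these tissue markers in the S phase values and in those of the genes below was not tested. The summed level of the 53 histone genes outside the poly(A) list was 13.1 CPM in SnoN cKO 2, where the S phase sum was highest. It was 100.2 CPM in SnoN cKO 3.

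Genes of histone mRNA production had their highest value in SnoN cKO 3 in 2 of 17 cases, against 14.4% of all genes tested, and in SnoN cKO 2 in 9. Of 17 listed genes 13 had positive fold changes (11 with library totals), the median log2 fold change was 0.05, 5 were at an unadjusted p under 0.05 (7.68% of all genes tested) and 0 passed edgeR's adjusted threshold. By edgeR 3 of 17 were at that unadjusted p with library totals, and 0 to 3 when 1 library was left out. Slbp, which binds the stem-loop, averaged 55.4 ± 2.26 CPM in wild type libraries against 60.4 ± 2.74 CPM in those of SnoN cKO (SD, n = 3 each), a log2 fold change of 0.12 (SE 0.05) and an adjusted p of 0.640 by edgeR. Npat, the coactivator of histone gene transcription, had 0.11 (SE 0.05). Ccne2, a cyclin of the G1 to S transition, was at 27.5, 29.9 and 25.2 CPM in wild type and 30.3, 31.8 and 42.5 CPM in SnoN cKO, highest in SnoN cKO 3. Its log2 fold change was 0.34 (SE 0.12), and 0.18 (SE 0.09) without SnoN cKO 3. Lsm11, a subunit of the U7 particle that processes histone mRNA, had -0.11 (SE 0.05), and Upf1, a helicase in histone mRNA decay, -0.13 (SE 0.05). In these 5 genes the libraries of the genotypes were separate, and 5 of 17 genes were so with SnoN cKO higher (6.95% of all genes tested) and 2 with it lower (6.73%).

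Genes listed as replication-independent histone variants were also compared, without a check of their mRNA ends or of their timing in the cell cycle. Fold changes were positive in 11 of 11, with a median of 0.11, and 0 passed edgeR's adjusted threshold, with 3 at an unadjusted p under 0.05 (7.68% of all genes tested). By edgeR 1 of 11 was at that unadjusted p with library totals, and 1 to 8 when 1 library was left out. The tissue markers given above moved alongside these genes too. H3f3b, a gene for H3.3, averaged 561 ± 9.42 CPM in wild type libraries against 641 ± 46.5 CPM in those of SnoN cKO (SD, n = 3 each), a log2 fold change of 0.19 (SE 0.06). H3f3a, the other H3.3 gene, had 0.17 (SE 0.07), H1f0, the linker histone of resting cells, 0.18 (SE 0.08), H2afz 0.15 (SE 0.07) and H2afx 0.11 (SE 0.06). Of 20 histone chaperones, 15 were positive (13 with library totals) with a median of 0.04, 3 were at an unadjusted p under 0.05 (7.68% of all genes tested) and 0 passed edgeR's adjusted threshold. By edgeR 1 of 20 was at that unadjusted p with library totals, and 1 to 2 when 1 library was left out. Among the chaperones Chaf1b, a subunit of the assembly factor CAF-1, had 0.23 (SE 0.07), Hat1, the acetyltransferase of new H4, 0.17 (SE 0.07) and Nasp, an H3 and H4 chaperone, 0.11 (SE 0.04). Mki67, expressed in dividing cells, averaged 657 ± 35.2 CPM in wild type libraries against 705 ± 41.9 CPM in those of SnoN cKO (SD, n = 3 each).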

How the data were processed

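The tools STAR 2.0.4b, featureCounts 1.4.5 and Subread and the build mm9 are named, per the submitters' processing notes. The deposited values are raw counts of reads on genes, in a table of 41228 rows and 6 libraries. Repeated entries of a symbol with identical counts were kept once. The Ensembl identifiers were out of register with the symbols (97 of 40254 had the same symbol in GENCODE M21), whereas the counts followed the symbols: olfactory and vomeronasal receptor genes had 10 or more reads in 1.32% of cases by symbol and 44.7% by identifier. Symbols were therefore used and identifiers are not printed.

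Counts were tested with edgeR 4.0.16 in R 4.3.3 (filterByExpr at a minimum count of 10, TMM scaling, quasi-likelihood test of genotype, two-sided, 6 libraries, no covariates), with Benjamini-Hochberg adjustment over 15457 genes at 0.05. CPM were computed from TMM-scaled totals of those genes. DESeq2 1.42.0 and limma 3.58.1 served as alternatives. Each library carries its own code and sex in the labels, which do not say in words that these are separate animals, and p-values measure the spread between these samples. Named members were the 4 of each class with the highest mean CPM, the 4 with the smallest p in each direction, and the poly(A) and germ line lists, and others named were chosen after their values were seen. The members and lists were chosen with earlier results of these data known. Stem-loops and 50-base stretches came from GENCODE M21 and promoters from RefSeq, matched by symbol.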

Additional observations from a re-analysis of the deposited data

How the results depend on the processing

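No histone gene passed the adjusted threshold in any alternative fit. Over all genes, 0 passed in the main analysis, 39 without the filter, 6 with DESeq2 and 1 with the labelled sex in the model. The median log2 fold change of the histone genes tested, 0.03, was 1.41 without the filter and 1.37 with DESeq2, over all 59 members, and ranged from -0.046 (without SnoN cKO 3) to 1.23 (without SnoN cKO 1) when 1 library was left out, with 8 to 18 members passing the filter. In these fits the filter asks for enough reads in fewer libraries. With wild type 2 or SnoN cKO 3 left out 8 members passed, and with any other library left out 15 to 18. The medians of 0.68 to 1.23 come from these larger sets. They cannot be read as a shift of the 8 members of the main fit. The log2 ratio of the summed level, 0.40, ranged from -0.12 (without SnoN cKO 3) to 0.62. Leaving out 1 library gave log2 fold changes from -0.21 to 0.56 for Hist1h1c, -0.13 to 0.077 for Hist1h2bc, -0.26 to 0.13 for Hist1h2be, -0.020 to 0.055 for Hist2h2be and -0.15 to 0.11 for Hist3h2a, each a change of sign. Hist1h1c was at -0.15 without wild type 2 and SnoN cKO 3, with and without the filter, 2 alternatives chosen after seeing the data, and Hist2h2be was at -0.0074 with library totals alone. The cause was not tested beyond the libraries left out.

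With the replicate number as a block, 0 genes were called and the median was 0.03. Same-numbered libraries had correlations of -0.04, -0.32 and -0.18 in their deviations from the group means. The highest correlation between the genotypes was 0.39, of wild type 2 with SnoN cKO 3. Deviations from a mean of 3 libraries depend on each other, so these values cannot show or exclude a pairing. Members with few reads limit the depth: the 51 below the filter had between 2 and 187 reads in all.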
